A study of Mus musculus with 142 samples.

Results

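The replication timing (RT) of 10 loci that hold core and naive pluripotency factors was followed in mouse embryonic stem cell (mESC) clones: Pou5f1, Sox2, Nanog, Klf4, Esrrb, Zfp42, Tfcp2l1, Prdm14, Tbx3 and Dppa3. Each locus is the mm10 gene body with 100 kb on each side, and its RT is the mean of the 50 kb windows it overlaps. They are 10 of 20129 protein-coding gene loci on the 19 autosomes that were measured in the same way, and they cover 52 windows. Nanog and Dppa3 are neighbours on chromosome 6 and share 3 of these windows, so their values are not independent. The 10 were named for their known roles, and the rule that picked them uses no measured value.

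E/L Repli-seq compares DNA that replicates early in S phase with DNA that replicates late. Cells are labelled with BrdU, here for 2 h, sorted by DNA content into early and late S-phase fractions, and the labelled DNA of both is sequenced. The values are log2(E/L), where E and L are the early and late reads, so that a positive value is early and a negative value late. The cells were F121-9, a hybrid mESC line from musculus and castaneus (CAST) parents kept in 2i/LIF medium, in which a read that covers a SNP can be assigned to its homolog, musculus or CAST.

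All groups were CRISPR deletions in F121-9 within the Dppa domain on chromosome 16, which holds Dppa2, Dppa4 and Morc1. No member locus lies on chromosome 16, so both homologs of every member were unedited in every clone, and no undeleted parental line was analysed here. In the names, A, B and C are segments of the domain with early replication control elements (ERCEs), and OSN marks a site bound by OCT4, SOX2 and NANOG, the proteins of Pou5f1, Sox2 and Nanog. TSS marks a promoter, Z is another OSN site upstream of A, and CL or CR with a length is a deletion on the left or right of C. The clones numbered 53, from 26 deletions. AOSN.B.COSN123 had 5 clones and A.COSN123 had 4, while ATSS.BTSS.CTSS, BTSS.CTSS and COSN12 had 3 each. The 14 deletions with 2 clones each were A.B.COSN123, A.BOSN12.COSN123, A.COSN12, AOSN.COSN12, AOSN.COSN123, BOSN1.COSN123, CL20k, COSN1, COSN1.2.8k, CR13.4k, CR14.6k, CTSS, Z.AOSN.COSN123 and Z.B.C. The 7 with 1 clone each were A.BOSN1.COSN123, A.BOSN12.BTSS.COSN123, AOSN.BOSN12.COSN123, BOSN12.COSN123, BTSS, COSN123 and CR11.8k. In 43 clones the CAST homolog of the domain was labelled unmodified, in 2 the deletion was on CAST alone, and in 8 both homologs carried one. COSN1.2.8k clone 18, labelled unmodified on CAST, had no CAST value on chromosome 16. In 13 libraries a homolog had no value on a whole chromosome (11, 13, 14 or 16), none of which holds a member. Some lines were made in others that already carried a deletion, so clones are not fully independent, and p-values measure the spread between these clones.

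OCT4 (from Pou5f1) and SOX2 bind DNA together and, with NANOG, form the core of the network that keeps embryonic stem cells pluripotent. KLF4, ESRRB, TFCP2L1, TBX3 and PRDM14 hold the naive state of mouse cells, the state that 2i/LIF maintains, while Zfp42 (Rex1) and Dppa3 (Stella) are widely used markers of it. Active genes usually lie in early-replicating domains, and many domains change their RT when embryonic stem cells differentiate. The profiles hold no RNA, so nothing is said here of how much of any gene was expressed. RT is a mean over a cell population, and intermediate RT in every cell cannot be told apart from a mixture of cells that replicate the locus early and late.

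The promoters of 3 members are shown because they hold octamer letters, which OCT4 can bind, one of the proteins whose sites the deletions remove elsewhere. RefSeq (GRCm38.p6) listed promoters for 7 of the 10 members, and the 250 bases before each annotated start were searched on both strands. The octamer-like ATGCAAA (reverse TTTGCAT) was in 4.13% of the 32851 RefSeq promoters searched in the same window, the SOX-like ACAATG (reverse CATTGT) in 10.7%, and both in 0.642%. Of the 7 members, Sox2, Nanog and Zfp42 held the octamer letters, and Nanog also held the SOX letters next to them. At Pou5f1, the second of its 2 listed starts held the SOX letters, from −158, without the octamer. A match of letters is not a bound site. The sequences are written 5′ to 3′ on the gene's strand, with matches in capitals, and positions are counted back from the start of transcription.
Nanog, chr6:122707239-122707488, plus strand, octamer from −75 and SOX letters from −67: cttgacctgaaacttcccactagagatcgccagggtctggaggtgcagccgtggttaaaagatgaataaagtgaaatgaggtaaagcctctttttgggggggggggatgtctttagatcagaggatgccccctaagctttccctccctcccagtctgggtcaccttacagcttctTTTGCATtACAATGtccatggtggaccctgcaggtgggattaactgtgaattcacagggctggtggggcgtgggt
Sox2, chr3:34649745-34649994, plus strand, octamer from −99: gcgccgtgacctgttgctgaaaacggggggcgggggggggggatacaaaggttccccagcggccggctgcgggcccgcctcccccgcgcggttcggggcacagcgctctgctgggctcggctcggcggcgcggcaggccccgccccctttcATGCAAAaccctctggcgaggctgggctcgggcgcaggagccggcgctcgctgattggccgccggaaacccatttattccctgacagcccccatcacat
Zfp42, chr8:43307010-43307259, minus strand, octamer from −185: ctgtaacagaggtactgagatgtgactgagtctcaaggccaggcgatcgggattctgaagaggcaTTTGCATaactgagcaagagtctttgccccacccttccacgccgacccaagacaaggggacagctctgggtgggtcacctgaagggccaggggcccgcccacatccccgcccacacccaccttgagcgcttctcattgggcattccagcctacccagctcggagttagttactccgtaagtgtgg

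The member loci replicated early, on both homologs. For 9 of them, all but Zfp42, none of the 954 values (9 loci, 2 homologs, 53 clones) was below 0, and 898 (94.1%) were above 1. The lowest of the 954 was 0.36, at Nanog on CAST in ATSS.BTSS.CTSS clone A8. Zfp42, set apart after its values were seen, was above 1 in 38 clones on musculus and in 9 on CAST. The median over the 10 members of the mean RT was 1.23, beside 1.08 over all gene loci. Of all gene loci, 54.4% had a mean above 1 and 79.3% a mean above 0, shares of means that are unlike the share of single values. Among all gene loci, the mean RT of Zfp42 was at percentile 40.8, Nanog at 59.1, Pou5f1 at 61.9 and Tfcp2l1, the earliest member, at 91.2.

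**Figure D1:**
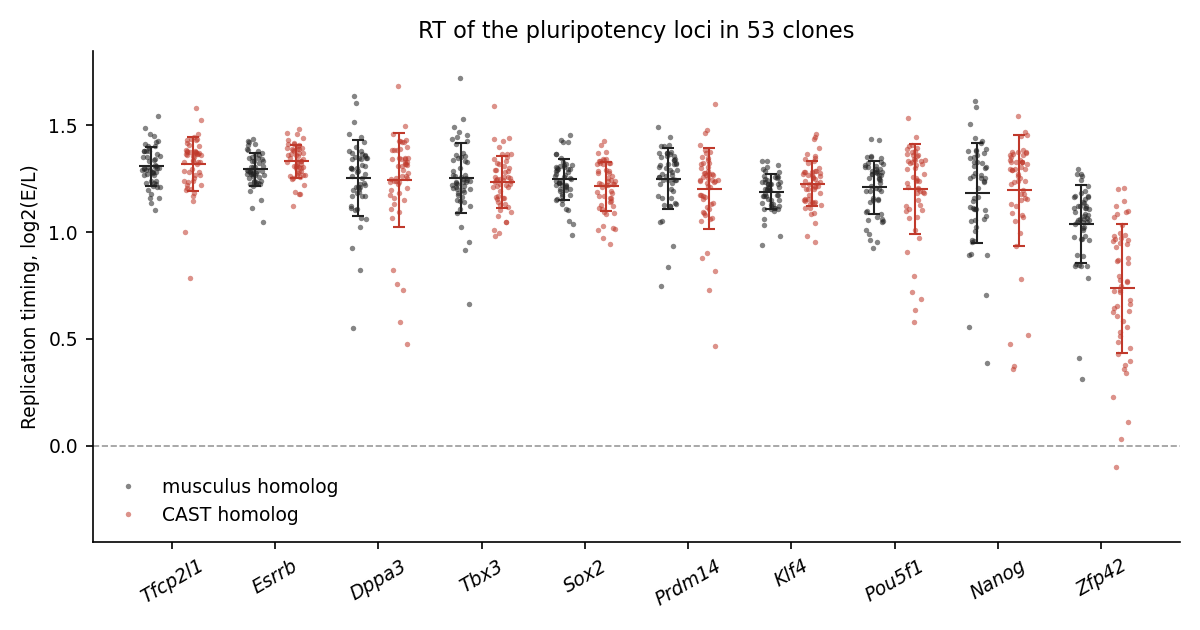
RT (log2(E/L)) of each member locus on the musculus and the CAST homolog in 53 clones. Each point is a clone, bars are mean ± SD over clones, and loci run from the earliest to the latest mean; Zfp42 is the latest and its homologs are the farthest apart.

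Among the core factors, RT of Pou5f1 on musculus had a lowest, median and highest value of 0.93, 1.25 and 1.44, and on CAST of 0.58, 1.25 and 1.54. The locus lies on chromosome 17 (gene body 35506018 to 35510772) within the MHC region, its windows hold 12 protein-coding genes, and on average 79.1% of its windows had a value, the lowest share of the members. Sox2, on chromosome 3 (34650405 to 34652461), is the single protein-coding gene in its windows. Its RT was 0.98, 1.25 and 1.46 on musculus and 0.95, 1.23 and 1.43 on CAST (lowest, median, highest). The SD between clones of the mean of both homologs, 0.09, was at the 11.9th percentile of gene loci. Nanog, on chromosome 6 (122707489 to 122714633), had a median close to those of Pou5f1 and Sox2 and a long tail towards late values. Its values were 0.39, 1.24 and 1.61 on musculus and 0.36, 1.29 and 1.54 on CAST, and its SD of 0.24 was at the 92.4th percentile of all gene loci.

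Of the naive factors, Esrrb and Tfcp2l1 were the earliest members. Esrrb encodes an orphan nuclear receptor and is a target of NANOG, and Tfcp2l1 a grainyhead-family factor downstream of LIF. The mean RT of Esrrb over both homologs was 1.31 ± 0.07 (SD, n = 53 clones) and that of Tfcp2l1 was 1.31 ± 0.08, both at the 91st percentile of gene loci or just above it. The SD of Esrrb was at the 0.333th percentile of gene loci, the lowest of the members. Esrrb ran from 1.05 to 1.44 on musculus (median 1.29) and from 1.12 to 1.48 on CAST (median 1.33), so every clone was above 1 on both homologs. Tfcp2l1 ran from 1.10 to 1.54 on musculus (median 1.30) and from 0.78 to 1.58 on CAST (median 1.35), with a single value below 1.

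Klf4, a reprogramming factor and the single protein-coding gene in its windows, had a mean of 1.21 ± 0.08 (SD, n = 53 clones). It ran from 0.94 to 1.33 on musculus and from 0.96 to 1.46 on CAST, with few values far from the median. Tbx3, a T-box factor, had a mean of 1.25 ± 0.13, with 0.66, 1.24 and 1.72 on musculus and 0.98, 1.25 and 1.59 on CAST (lowest, median, highest). Prdm14, a repressor of differentiation and DNA methylation genes that germ cells also need, had a mean of 1.23 ± 0.15. Its lowest values were 0.75 on musculus and 0.47 on CAST, around medians of 1.27 and 1.24. Dppa3, a maternal and germ cell protein that protects DNA methylation in the zygote, had a mean of 1.25 ± 0.19, with 0.55, 1.28 and 1.64 on musculus and 0.47, 1.29 and 1.69 on CAST. The ranges of the homologs overlapped at each of these loci, and the lowest values of Prdm14 and Dppa3 were in ATSS.BTSS.CTSS clone A1 or Z.AOSN.COSN123 clone B4.

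Zfp42, a zinc-finger gene on chromosome 8 (43295063 to 43306980), was the latest and the one member with a clear difference between homologs. On musculus the lowest, median and highest RT were 0.31, 1.07 and 1.30, and on CAST −0.10, 0.77 and 1.21. RT was above 1 in 38 clones on musculus and in 9 on CAST, and the value below 0 was in ATSS.BTSS.CTSS clone A8.

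From the earliest to the latest mean RT, the order was Tfcp2l1, Esrrb, Dppa3, Tbx3, Sox2, Prdm14, Klf4, Pou5f1, Nanog and Zfp42. Each of the 8 differences between neighbours from Tfcp2l1 to Nanog was smaller than its SD over clones, so single clones often had neighbours in another order. The largest of the 8 was Esrrb before Dppa3, by 0.06 ± 0.18 (SD, n = 53), in 33 clones. The differences between the means were not tested. Nanog was earlier than Zfp42 by 0.30 ± 0.25 (SD, n = 53), in 47 clones.

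The surroundings of the genes differed. Within 1500 kb on either side of its start, Zfp42 lay in a short early region, from 250 kb upstream to 350 kb downstream, and 48 of the 61 windows were late (mean RT below 0). Its earliest window had a mean of 0.99. Tbx3 was at the other end, with no late window among 61, and Esrrb had 1 and Pou5f1 had 3. Sox2 had 13 and Tfcp2l1 had 18. Nanog, Dppa3, Klf4 and Prdm14 had 28, 27, 24 and 23, and were thus early regions of intermediate length beside late DNA. Zfp42 also had the lowest GC content of the members, 41.4% (21.8th percentile of gene loci), while the other 9 lay between 44.7% and 48.0%, above the median of 44.6% for all loci.

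**Figure D2:**
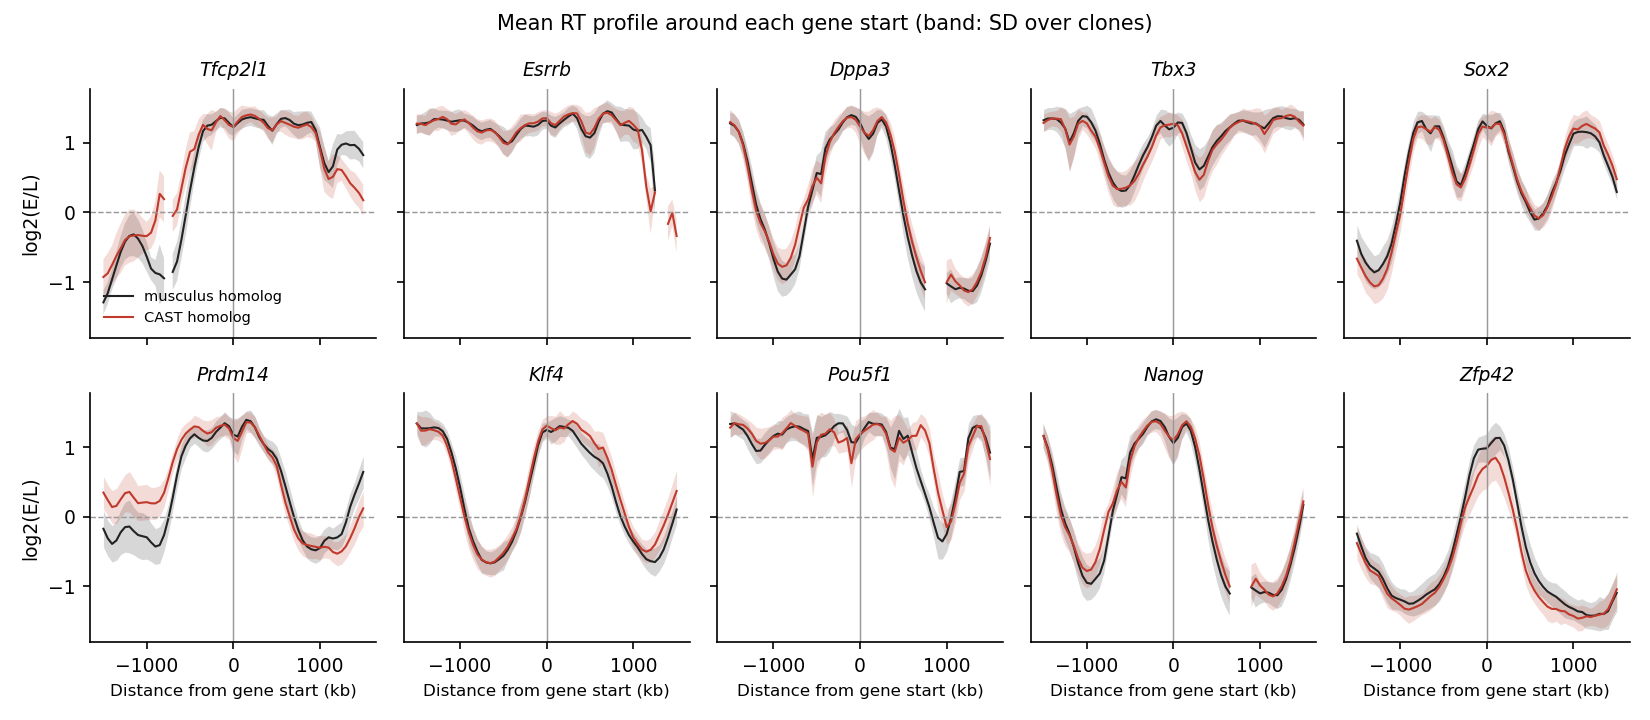
Mean RT (log2(E/L)) by distance from the gene start (kb, upstream negative) around the 10 members, for musculus and CAST, with a band of ± SD over 53 clones. Zfp42 is an early peak in late DNA, with 48 of 61 windows below 0, whereas Tbx3 has no window below 0.

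The largest difference between homologs within 1500 kb of the gene start lay in the flanks of several members. At Pou5f1, the window 800 kb downstream had a mean RT of 0.14 ± 0.18 (SD, n = 53 clones) on musculus and 1.06 ± 0.21 (n = 51) on CAST, where the early region ends sooner on musculus. At Esrrb the order was the opposite, with 0.97 ± 0.24 (n = 44) on musculus and 0.02 ± 0.32 (n = 53) on CAST at 1200 kb downstream. Both windows lie at the edge of the early region around the gene, far outside the locus itself. At 850 kb upstream of Prdm14 the means were −0.41 ± 0.26 and 0.23 ± 0.22, and at 800 kb upstream of Nanog −0.63 ± 0.19 and −0.19 ± 0.24 (musculus and CAST, n = 53). The largest difference of any member was at Tfcp2l1, −1.16 (musculus minus CAST) at 850 kb upstream. These windows were picked as the largest difference within 1500 kb and carry no test. By that choice, none can be smaller than the difference at the gene start. Zfp42 was the member whose largest difference lay closest to its gene apart from Tbx3, which differed by 0.19 at 150 kb downstream.

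The musculus homolog of Zfp42 replicated earlier than the CAST homolog in 51 of 53 clones. The difference, musculus minus CAST, had a lowest value of −0.04, a median of 0.25 and a highest of 0.88. The values of the homologs overlapped, but within a clone they were nearly always in the same order. The mean difference was 0.30 ± 0.20 (SD; SE 0.026; limma, adjusted p = 7.0e-16). In the window that holds the gene start the means were 0.98 on musculus and 0.73 on CAST, and the largest mean difference was 0.47, at 250 kb downstream, where musculus was 0.81 and CAST 0.34. Under the 10 alternative settings that could be computed, the mean difference stayed between 0.25 and 0.34, and its highest adjusted p was 1.2e-11.

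**Figure D3:**
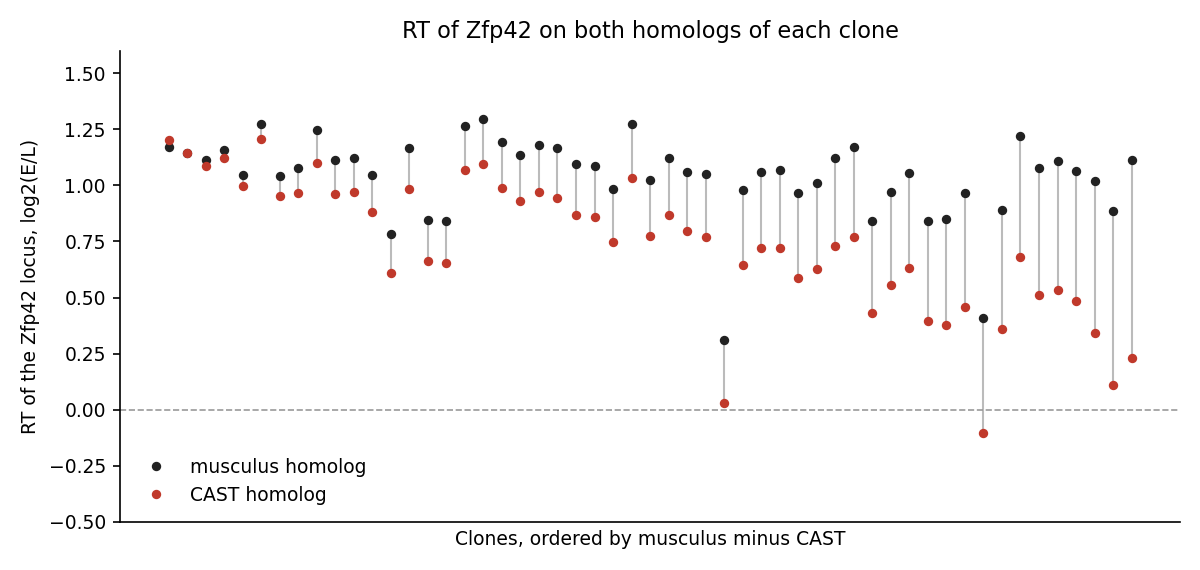
RT (log2(E/L)) of the Zfp42 locus on musculus and CAST in each of 53 clones, ordered by musculus minus CAST. The musculus point lies above the CAST point in 51 clones, by up to 0.88.

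Single clones spanned a wide range at Zfp42. In COSN1.2.8k clone 18, the homologs differed by −0.04, with 1.17 on musculus, and COSN12 clone B6 had 1.11 on musculus and 0.23 on CAST. The spread of the difference thus lay mostly on CAST, where the SD over clones was 0.30, beside 0.18 on musculus. By deletion, the mean difference ran from 0.05 in BOSN12.COSN123 (1 clone) to 0.54 in BTSS (1 clone). The deletions were not shown to differ in it (moderated F test of limma across deletions, adjusted p = 0.26), and neither were they at any of the other 9 members, while 9.25% of all gene loci passed.

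Elsewhere the homologs were close. Over all gene loci, 26.3% were called earlier on musculus and 28.0% earlier on CAST (adjusted p under 0.05), so a call alone is common. Of the members, 3 were called earlier on musculus (Sox2, Prdm14 and Zfp42) and 2 earlier on CAST (Klf4 and Esrrb). With a difference of at least 0.25 also required, 5.96% of loci were called earlier on musculus and 5.92% earlier on CAST, and of the members only Zfp42 was, on musculus. Sox2 was earlier on musculus by 0.03 (limma, adjusted p = 0.049, in 35 clones) and Prdm14 by 0.05 (adjusted p = 0.021, in 36 clones). Klf4 (adjusted p = 0.034, in 35 clones) and Esrrb (adjusted p = 0.0051, in 37 clones) were each earlier on CAST by 0.04. These 4 differences are smaller than the SD of the same loci over clones, and each lost its call under some settings: Sox2 in 6 of 10, Prdm14 in 4 of 10, Klf4 in 3 of 9 and Esrrb in 2 of 9. For Pou5f1, Nanog, Tfcp2l1, Tbx3 and Dppa3 the mean difference was between −0.01 and 0.02. The median size of the difference was 0.025 over the members and 0.049 over all gene loci.

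Before the deletions are compared, 3 clones have to be named. The first principal component of RT over the 14821 gene loci with a value in every clone held 32.9% of the variance. On it, ATSS.BTSS.CTSS clones A1 and A8 and Z.AOSN.COSN123 clone B4 lay at −2.80, −2.89 and −3.30 SD, beyond a limit of 2 SD. COSN1.2.8k clone 18 came next at −1.94 SD, just inside that limit, and was kept. The highest clone lay at 1.28 SD. The share of windows with a value in the 3 clones beyond 2 SD was 93.5%, 93.4% and 89.5%, and over all profiles it was 73.8% to 93.8%. That share and the median of a profile moved together (r = −0.97 over 53 clones, a description), and the 3 ATSS.BTSS.CTSS clones had profile medians of −0.17, −0.16 and −0.16, where all profiles ran from −0.18 to 0.31. Their part in what follows was not tested, and values are given with and without these clones.

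The members followed this axis to different degrees. Across the 53 clones, Pearson's r with it was 0.95 for Nanog, 0.90 for Dppa3, 0.88 for Prdm14 and 0.87 for Pou5f1. It was 0.61 for Tbx3, 0.57 for Tfcp2l1, 0.46 for Sox2 and 0.43 for Zfp42, and 0.26 and 0.23 for Esrrb and Klf4. The axis is made from the same profiles, and 28.9% of gene loci had an r above 0.5, so this is a description. Among members, Nanog varied with Dppa3 (r = 0.96, with shared windows), Prdm14 (0.86) and Pou5f1 (0.82), and little with Klf4 (0.21). The gene loci on other chromosomes most like a member over the 53 clones were Rilpl2 for Nanog (r = 0.96), Nip7 for Dppa3 (0.93), Numbl for Pou5f1 (0.91) and Ttc33 for Zfp42 (0.83). For Tbx3 it was C330021F23Rik (0.80), for Esrrb Col26a1 (0.76), for Sox2 Hnrnpf (0.69), for Tfcp2l1 Itfg2 (0.69) and for Klf4 Fbxo9 (0.66).

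The 6 values below 0.5 at the 9 early members were all in the 3 clones named above. The next lowest clones were COSN1.2.8k clone 18, with 0.52 as its lowest of these members, and COSN12 clone C6, with 0.69. Without the 3 clones the SD over clones fell to 0.16 at Nanog, 0.17 at Zfp42 and 0.13 at Pou5f1, and was 0.06 at Esrrb. No deletion left a member of the 9 late: even in the 3 clones all their values stayed above 0.

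The question of whether the deletions differ from each other in RT at the members was tested on each homolog across the 26 deletions. On musculus, 44.8% of gene loci were called, and of the members Pou5f1 (limma, adjusted p = 0.016), Nanog (0.034), Zfp42 (0.0026) and Tbx3 (0.047) were. On CAST, 48.4% of loci were called, and of the members Sox2 (0.039) and Zfp42 (0.010) were. The means of the deletions ran from 0.50 to 1.22 on musculus and 0.18 to 1.17 on CAST at Zfp42, and from 0.72 to 1.50 and 0.69 to 1.51 at Nanog. The members' counts, 4 and 2 of 10, were not above the share of all loci. Without the 3 clones, no member was called on musculus, where 34.5% of loci were (limma; 2 of 10 members had an unadjusted p under 0.05), and only Zfp42 was on CAST, where 38.2% were (adjusted p = 0.0098).

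**Figure D4:**
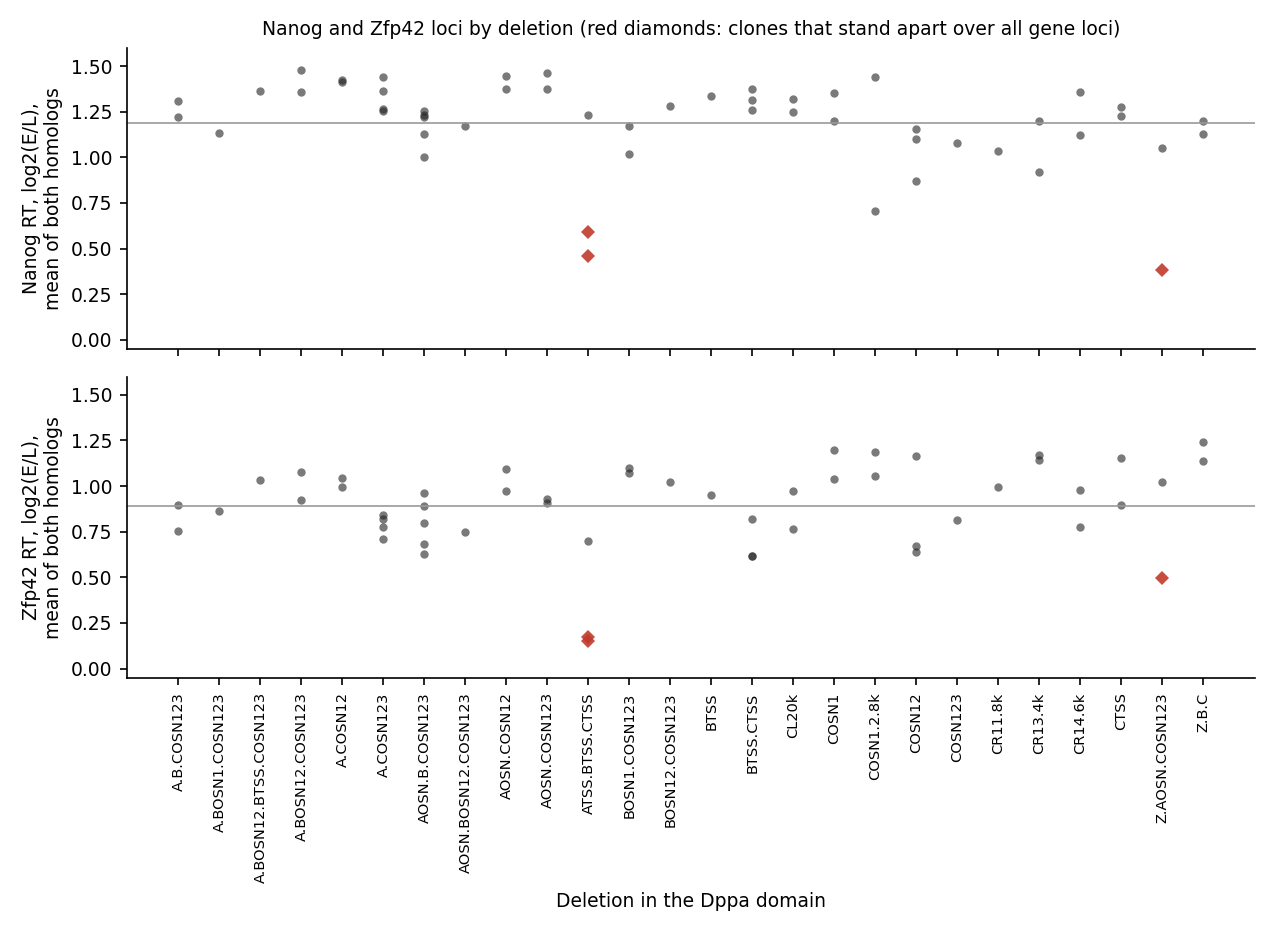
RT (log2(E/L), mean of both homologs) of Nanog and Zfp42 in each clone, by deletion. Red diamonds are the 3 clones that stood apart, and the grey line is the mean over clones; the 3 diamonds lie below the line at both loci.

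Each of the 19 deletions with at least 2 clones was then set against the other clones, in the mean of both homologs. Of the 190 pairs of a member and a deletion, 13 passed, all later, beside 3.07% of pairs over all gene loci called later. All 13 were in the 2 deletions that hold the 3 clones. In ATSS.BTSS.CTSS, which removes the promoters in A, B and C, 9 members were later and 36.3% of gene loci were. Zfp42 was 0.17 in clone A1, 0.15 in A8 and 0.70 in C4, below the mean of 0.89 over clones, and the deletion was later by 0.58 ± 0.11 (SE; limma, adjusted p = 6.7e-05). Nanog was 0.59, 0.46 and 1.23 in the same clones, so that C4 was at the level of other deletions. Its estimate was −0.46 ± 0.12 (SE; adjusted p = 0.0028). The other 7 estimates ran from −0.34 at Dppa3 to −0.12 at Klf4, and Esrrb, at −0.05, did not pass (adjusted p = 0.39). With each profile centred on its own median, 1 of these 9 calls, Zfp42, still passed, and the estimates of Tfcp2l1, Sox2 and Klf4 turned to 0.01, 0.04 and 0.06.

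In Z.AOSN.COSN123, 4 members were later, beside 14.5% of gene loci. Nanog was 1.05 in clone A9 and 0.38 in B4, and the estimate was −0.49 ± 0.15 (SE; limma, adjusted p = 0.027). Dppa3 was later by 0.44, Pou5f1 by 0.32 and Tbx3 by 0.24 on the log2 scale (adjusted p = 0.017, 0.029 and 0.041). With centred profiles 3 of the 4 passed, all but Tbx3. Clone B4 was the later of the pair at all 4 loci.

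Without the 3 clones, ATSS.BTSS.CTSS and Z.AOSN.COSN123 had 1 clone each and were not tested again. Of the 170 pairs in the other 17 deletions, 4 passed, all later (limma), beside 1.26% of pairs over all gene loci called later. COSN12 was later at Pou5f1 by 0.29, at Prdm14 by 0.19 and at Tbx3 by 0.18 on the log2 scale (adjusted p = 0.0034, 0.015 and 0.030), and AOSN.B.COSN123 at Sox2 by 0.12 (adjusted p = 0.0497). Of all gene loci, 15% were called later in COSN12 and 2.6% in AOSN.B.COSN123. With all clones none of these 4 passed, and at Pou5f1 in COSN12 the adjusted p was 0.067 (limma). Pou5f1 was 0.89 in COSN12 clone B6, 0.82 in C6 and 1.15 in D3. The profile medians of these clones were −0.16, −0.16 and −0.10, and centred profiles were not run without the 3 clones. In the other deletions no member passed with or without these clones. At this number of clones a null is weak. In data simulated with the spread over all clones, a shift of 0.25 in a deletion of 3 clones was recovered in 16% of loci. Deletions of 2 clones, shifts shared by a large share of loci, and the spread without the 3 clones named above were not simulated.

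The Dppa domain was taken as the 7 windows from 48.3 to 48.65 Mb of chromosome 16. Its RT on the deletion homolog ran from −0.84 to 1.19 over the clones (median 0.47), and on the other homolog from 0.48 to 1.27 (median 1.00). The other homolog also carried a deletion in 8 clones, among them BTSS.CTSS clone C11, which had the value of 0.48. RT of the members was set against that of the domain on the deletion homolog across clones. None of the 10 passed (limma), with 0 also at an unadjusted p under 0.05, and 1.03% of all gene loci did. The slopes, in units of member RT per unit of domain RT, ran from −0.06 at Pou5f1 to 0.12 at Zfp42 (95% interval −0.01 to 0.24, adjusted p = 0.38). For Nanog the slope was −0.04 (95% interval −0.17 to 0.09). Clones whose Dppa domain was late thus showed no detected shift of the member loci, within these intervals.

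Libraries of the same clone gave the spread between repeats of a clone, since 11 clones had 2 or more. For COSN123 the paper states that the repeats began from separate cultures, so this spread can hold culture differences as well as assay differences. RT in replicate 2 minus replicate 1 was called at none of the members and at 0% of all gene loci (limma, 0 members at an unadjusted p under 0.05), and the lowest exact sign-flip p was 0.048, at Tbx3 (mean 0.07, in 8 of 11 clones). Replicate numbers were not shown to pair samples across clones, so such a mean can be near 0 whatever the size of the differences within clones. The mean was 0.11 ± 0.27 (SD, n = 11 clones) at Nanog and 0.05 ± 0.32 at Zfp42. The SD within a clone was 0.22 at Zfp42, 0.20 at Nanog and 0.16 at Dppa3, nearly as large as the SD of 0.23, 0.24 and 0.19 between clones. At Esrrb both were small, 0.046 and 0.065. At Zfp42, Nanog and Dppa3 the SD within a clone leaned on 1 clone each. The largest differences were 0.84 at Zfp42 in CTSS clone C12, and 0.78 at Nanog and 0.58 at Dppa3 in AOSN.B.COSN123 clone 5A.2. Single libraries moved far: Zfp42 in CTSS clone C12 was 0.78 on musculus and 0.17 on CAST in replicate 1, and 1.36 and 1.28 in replicate 2. In AOSN.B.COSN123 clone 5A.2, Nanog on musculus was 0.67 in replicate 1 and 1.54 in replicate 2. In the 4 libraries of COSN123 clone A10, Zfp42 was 1.18, 0.95, 0.94 and 0.85 on musculus and 1.11, 0.50, 0.47 and 0.51 on CAST. For 42 clones there was a single library, so a clone that differed cannot be told apart from a library that did.

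**Figure D5:**
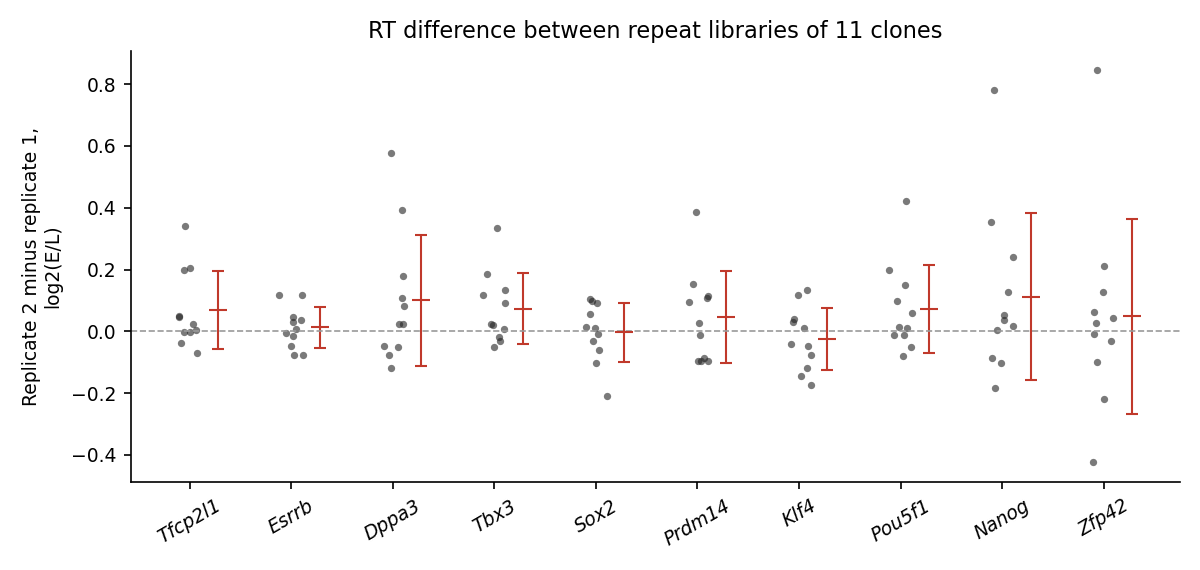
RT (log2(E/L), mean of both homologs) of each member in replicate 2 minus replicate 1 of 11 clones. Points are clones and red bars are mean ± SD; Zfp42 reaches 0.84 and Nanog 0.78, while Esrrb stays within 0.12 of 0.

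A list of 20 other genes of the pluripotency network, all of them measured, was early too. Its median mean RT was 1.25, 17 genes were above 1 and none was below 0. The earliest were Stat3 (1.35), which carries the LIF signal, Fgf4 (1.32) and Tdgf1 (1.29), and the latest were Dppa4 (0.61), Dppa2 (0.70) and Tet2 (0.80), a DNA demethylase. Dppa2 and Dppa4 lie in the domain that the deletions target. Of the 20, 2 passed as earlier on musculus and 4 as earlier on CAST, beside 26.3% and 28.0% of all gene loci. The 2 were Lifr, a LIF receptor subunit named here after its value was seen, by 0.24, and Tet2 by 0.06. Dppa2 and Dppa4 were earlier on CAST by 0.55 each, the only ones past 0.25, on the homolog labelled unmodified in 43 clones. Their difference cannot be told apart from the deletions themselves. Across deletions 7 of the 20 were called on musculus and 6 on CAST, below the 44.8% and 48.4% of all gene loci. The 7 include Dppa2 and Dppa4. With the RT of the Dppa domain 3 were called, beside 1.03% of all gene loci. Of these, Dppa2 and Dppa4 lie in that domain and were set against their own region, so their calls carry no information. The other was Tet2. The Zfp42 difference of 0.30 thus exceeded that of every gene in this list outside the targeted domain.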

How the data were processed

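Early and late S-phase BrdU-labelled DNA of F121-9 clones was sequenced. The authors trimmed reads (Trim Galore, cutadapt), aligned them to N-masked mm10 with bowtie2, assigned them to homologs with SNPsplit, and counted them in windows of 50 kb. The deposited log2 ratios of early over late reads were rescaled by the authors, quantile normalized and smoothed with loess over 300 kb, per their methods, although the medians of the profiles still differ (versions not given in the sources used here). Smoothing spreads signal into neighbouring windows, so adjacent loci share values, and since only ratios were used the read depth is unknown. All 138 columns were used, from 66 libraries, and 5 further libraries (10 samples) of the labels were not analysed here. Repeat runs (3 clones) and libraries of a clone were averaged, so the clone was the unit.

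RT of each of 20129 gene loci (protein-coding, autosomal; 27 repeated symbols dropped) was the mean of its windows with a value. Tests used limma 3.58.1 in R 4.3.3 over all loci, with Benjamini-Hochberg adjustment and a threshold of 0.05. They were the homolog difference per clone (also with a size of at least 0.25), the moderated F across deletions on each homolog, each deletion against the other clones, the slope against the Dppa domain, and replicate 2 minus replicate 1. Each fit was tested on data simulated with the spread of each locus over all clones. In these, 100 loci among 20129 were changed at each size. A homolog difference of 0.1 was recovered at 87% of the changed loci and a difference of 0.25 at 100%. A size of 0.25 was recovered at 13% among deletions (alternate deletions shifted), 16% in a deletion of 3 clones, 86% in the slope and 77% between replicates. The simulated F and replicate tests used the spread between clones of the mean of both homologs. The reported F tests used single homologs, and replicate differences have their own spread. The recovered shares thus describe the simulations and need not hold for the tests as run. Python 3.11.15 (pandas 2.3.3, numpy 2.4.6, matplotlib 3.10.9) was used for the rest.

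The rule for the members uses no measured value, but the members, the gene lists and the tests were chosen with earlier results of these data known. Genes named are the members, the locus on another chromosome most like each (Pearson's r over clones; that of Prdm14 is not reported here), the 3 earliest and 3 latest of each list and those past 0.25 between homologs, and Lifr, named after its value was seen. Alternatives were flanks of 50 and 250 kb, the window of the gene start, the median of windows, centred profiles, a filter on windows with a value, libraries as units with and without the replicate number as a block, single homologs, a size of 0.5, clones without a missing chromosome, and each clone left out. Leaving out the 3 clones beyond 2 SD on the first principal component was added after the data were seen.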

Additional observations from a re-analysis of the deposited data

Results flagged for a closer look

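In the 4 clones of A.COSN123, RT of Esrrb on CAST in clone B7 was 1.27 and the nearest other clone was 1.40. The gap to the nearest clone was 0.853 of the range of the group, beyond the Dixon limit for 4 samples. Of 40 tests of this kind, on each member and homolog in A.COSN123 and AOSN.B.COSN123, 1 went past the limit, and chance gives about 5%. The tests share clones and are not independent.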

How the results depend on the processing

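The counts below are of members called by limma. The homolog difference of at least 0.25 was called at 1 member, Zfp42, and at 0 with a size of 0.5, and stayed at 1 in the other alternatives and with each clone left out. Differences among deletions were called at 4 members on the musculus homolog and 2 on CAST. On musculus the count was 2 with a flank of 250 kb, and 1 each with the median of windows, centred profiles and the filter on windows (3 member loci left), and 0 without the 3 clones that stood apart. With each clone left out it ran from 2 to 6, and was 2 without A.BOSN12.COSN123 C11, AOSN.COSN123 A6, AOSN.COSN12 F3, ATSS.BTSS.CTSS A1 or A8, or Z.AOSN.COSN123 B4. On CAST it was 4 with 250 kb, 1 with the median, 4 with libraries as units, 6 with the replicate block and 1 without the 3 clones, and from 1 to 8 with each clone left out (8 without ATSS.BTSS.CTSS C4, 6 without COSN1.2.8k 18 or 4 or Z.AOSN.COSN123 A9, and 1 without any of A.COSN123 D8 or H10, AOSN.B.COSN123 2A.2, 3C.4 or 5A.2, AOSN.COSN123 A6, AOSN.COSN12 F3, ATSS.BTSS.CTSS A1 or A8, BOSN1.COSN123 C4 or E6, BTSS.CTSS G3 or H11, CR13.4k 2-12 or 2-49, and Z.B.C A6). Single deletions gave 13 calls. The total under each setting, which need not be the same calls, was 8 with 250 kb, 8 with centred profiles, 2 with the filter and 4 without the 3 clones, and it ran from 7 to 15 with each clone left out (7 without ATSS.BTSS.CTSS A1, 8 without A8). Centring turned Tfcp2l1, Sox2 and Klf4 in ATSS.BTSS.CTSS to 0.0078, 0.0388 and 0.0553. The slope and the replicate difference stayed at 0 calls in all alternatives run. The causes were not tested. Replicate numbers did not pair the samples: over 55 pairs of clones, the correlation of replicate 2 minus replicate 1 ran from −0.40 to 0.52. The replicate block moved only the count on CAST by over 1.5 times, and gave 1 member for the homolog difference, 4 for deletions on musculus, 13 for single deletions and 0 for the slope. With 1 library in 42 clones and at most 5 clones a deletion, small shifts are below what these data resolve.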

Other observations

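A list of 20 genes of the primed state and of the germ layers, all measured, had mean RT from −0.73 to 1.38. The median mean RT was 0.93, with 8 genes above 1 and 3 below 0. The earliest were Mixl1 (1.38), a mesendoderm homeobox gene, Nkx2-5 (1.31) and Hand1 (1.30), both cardiac factors. The latest were Fgf5 (−0.73), a marker of primed cells, Foxa2 (−0.58), an endoderm factor, and Gata6 (−0.24), a factor of primitive endoderm. Of the 20, 8 passed as earlier on musculus and 5 as earlier on CAST, beside 26.3% and 28.0% of all gene loci. With at least 0.25 required, Gata6 was earlier on musculus by 0.32 and in 53 of 53 clones (limma, adjusted p = 8.2e-26), and Fgf5 was earlier on CAST, with a musculus minus CAST difference of −0.31 (adjusted p = 2.9e-19). Across deletions 13 were called on musculus and 12 on CAST, beside 44.8% and 48.4% of all gene loci. None was called for the slope against the Dppa domain (limma). The same direction of homolog difference at Zfp42 and Gata6 was not tested for any relation.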
